A study of Mus musculus with 10 samples.

Results

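The 14 cleavage sites of 8 genes were followed through mouse embryonic stem cells (ESC) and the embryoid bodies (EB) made from them, with and without Mettl3. The genes are the endoderm transcription factor genes Gata4 and Sox17, the endoderm endocytic adaptor gene Dab2, the basement membrane genes Lamb1 and Hspg2, the adhesion genes Itga5 and Fat1, and the secreted growth factor gene Vegfa, which belongs to none of those 3 classes. The 14 sites are part of 1626 in the deposited table, of which 1423 could be given a gene name. The genes were chosen by their known roles with their cleavage efficiencies in all 4 columns in view, so every value and difference below is a description and carries no test.

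The labels name 4 groups. WT ESC (3 libraries) and Metll3-/- ESC (3 libraries), the second called KO here, were kept without serum on gelatin in N2B27-based medium with LIF, 3 µM CHIR99021 and 1 µM PD0325901, after expansion on feeder fibroblasts. WT EB (2 libraries) and Metll3-/- EB (2 libraries) came from such cells after 9 days in suspension with 15% serum and without LIF or the 2 inhibitors. The table gives 1 value per site and group, with no library spread and no read number, so the depth is unknown and no error can be put on a value. Values over a whole culture cannot tell a change within 1 cell type apart from a change in which cells supply the transcript. The labelled cell types could not be checked on expression, which the table does not hold. Of the marker genes listed for this purpose, 2 of 9 pluripotency genes (Tbx3 and Tet1), 3 of 8 endoderm genes (Gata4, Sox17 and Dab2) and 0 of 7 fibroblast genes had a site.

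As background, Mettl3 is the catalytic subunit of the complex that places N6-methyladenosine (m6A) on messenger RNA, mostly at an A followed by C in the DRACH context. The bacterial RNase MazF cuts RNA before ACA and leaves ACA uncut where its first A carries m6A. A cleavage efficiency near 0 therefore means that few molecules were cut at the site and one near 1 that nearly all were. No label used here names the enzyme. When embryoid bodies form, an outer layer of primitive endoderm arises that expresses Gata4, Sox17 and Dab2 and lays down a laminin and perlecan basement membrane, to which the inner cells attach through integrins.

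The sequences show what the 14 sites share and where they differ. They are 29 bases from the matched GENCODE M21 transcripts, centred on the A of the site, with the 5 bases from 2 before to 2 after that A in capitals. The first set holds the endoderm genes, whose sites all have G 2 bases before the A.
Gata4: tgacagtcatggGGACAtaatcaccgcgt
Sox17: tctgcccactccGGACAcatccccgctgg
Dab2: tggcccactaaaGGACAttcccagtgacg

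The second set holds the basement membrane genes Lamb1 and Hspg2, in which the site cut most completely in EB WT has A in place of G at the first capital.
Lamb1 site 1: caatgagataaaAGACAtcctggcccaga
Lamb1 site 2: ctccctccttaaGGACAtaagtgagaaag
Hspg2: aaggactcggcaGGACAgcgagctggtgg

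The third set holds the sites of Fat1 and Vegfa with values in both genotypes, which carry most of the differences between KO and WT.
Fat1 site 1: cgtgagggccaaAGACAaagggaagcccg
Fat1 site 2: tccgccagcaagGGACAaagcatgggcga
Fat1 site 4: acacccacccagGGACAtgcctgcagcag
Vegfa site 1: gaacagagagagGGACAggggcaaagtga
Vegfa site 2: ggccgtgtgcgcAGACAgtgctccagccg
Vegfa site 3: tgccgacacgggAGACAatgggatgaaag

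In all, 9 of the 14 sites were GGACA and 5 were AGACA, against 62.5% and 37.5% of the named sites of the table. A further ACA lay inside the 29 bases at 5 sites: Gata4, Sox17, Fat1 site 4, Vegfa site 1 and Vegfa site 3. In Sox17 it began 2 nt downstream of the site, so that the next ACA overlaps the capitals. In Vegfa site 3 it began 9 nt upstream, in Gata4 and Vegfa site 1 12 nt upstream and in Fat1 site 4 14 nt upstream. An ACA within 15 nt upstream was present at 4 of the 14 sites (28.6%) and at 11.7% of the named sites. How a nearby ACA affects the deposited efficiency was not tested.

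**Figure D1:**
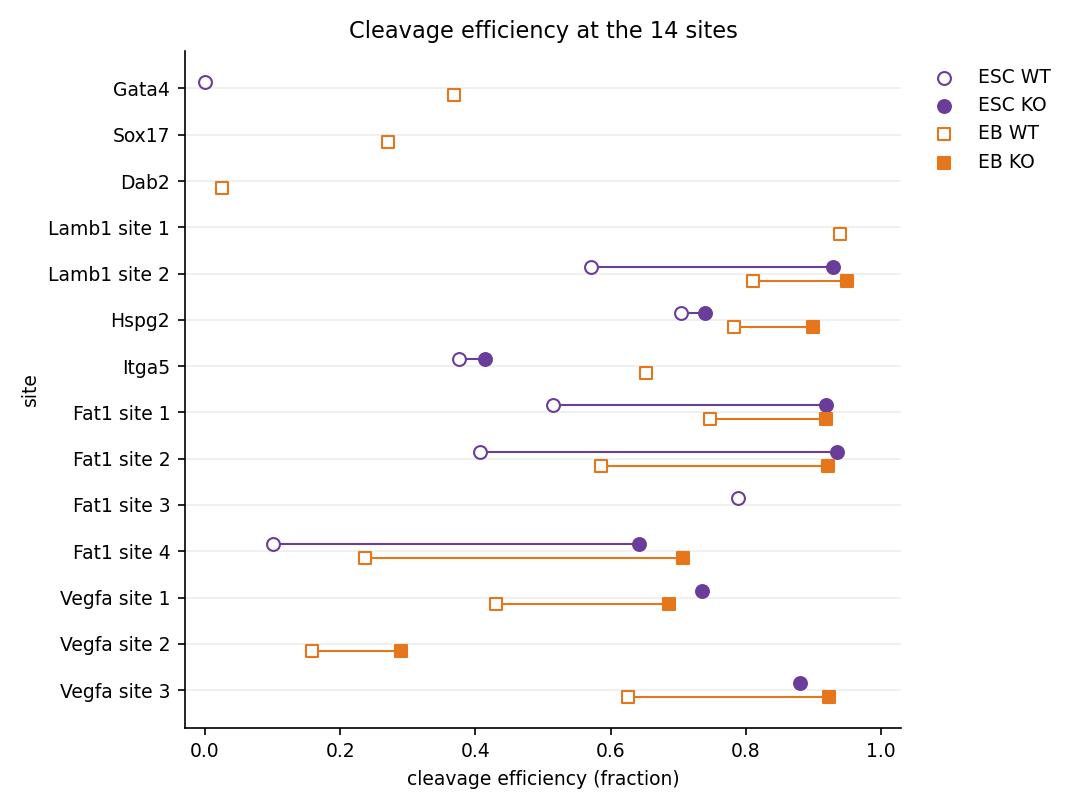
Cleavage efficiency (fraction, horizontal axis) at each of the 14 sites (vertical axis), with ESC as purple circles, EB as orange squares, WT open and KO filled, and a line joining WT and KO of the same cells where both values exist. Every line runs from a lower WT to a higher KO value; Gata4, Sox17, Dab2, Lamb1 site 1 and Fat1 site 3 have no KO value.

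The endoderm genes had values almost solely in WT EB. The site of Gata4, a zinc finger transcription factor of primitive endoderm and heart, lies on chromosome 14 at position 63819228 on the minus strand of mm9 (transcript uc007uhn.1), in the CDS, 16 nt before its last base. It was listed at 0 in ESC WT and at 0.368 in EB WT, with no value in either KO column. The site of Sox17, an HMG-box transcription factor of endoderm, lies on chromosome 1 at position 4482389 on the minus strand (uc007aez.1), in the CDS. It had a value in EB WT alone, 0.271. The site of Dab2, a clathrin adaptor of endocytosis, lies on chromosome 15 at position 6385555 on the plus strand (uc007vde.1), in the CDS. It too had a value in EB WT alone, 0.0245, and only 6.11% of the 1294 sites with an EB WT value were lower.

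These 3 sites were all cut in fewer molecules than the median EB WT site, which stood at 0.542. Gata4, the highest of the 3, had 37.5% of the column below it. Gata4 and Sox17 nevertheless lay between the quartiles of that column, 0.217 and 0.816, and Dab2 below them. Without a KO value, how far their efficiency depends on Mettl3 could not be measured for any of the 3 genes. The same pattern of values, EB WT alone, was found at 3 of the 14 sites (Sox17, Dab2 and Lamb1 site 1) and at 125 of 1626 sites (7.69%) in the table. Over the 14 sites, values were given for 8 sites in WT and 8 in KO of ESC, and for 13 in WT and 8 in KO of EB. The whole table had 78.4%, 75.3%, 79.6% and 56.5% of its sites filled in these columns. No source used here states the minimum of reads behind a listed value, so a missing value does not show that a transcript was absent.

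Lamb1 and Hspg2 encode basement membrane proteins, the laminin β1 chain and the heparan sulfate proteoglycan perlecan. Lamb1 (uc007nhd.1) had 2 CDS sites on the plus strand of chromosome 12. Site 2, at position 32014318, is 40 nt before the last base of the CDS. Its efficiency was 0.571 in WT and 0.929 in KO of ESC, with 0.811 in WT and 0.949 in KO of EB. It was thus higher in KO by 0.357 in ESC and by 0.138 in EB. The smaller EB difference came with a WT value 0.240 higher than in ESC, while the KO value was 0.0206 higher. Lamb1 site 1, at position 32003432, was at 0.939 in EB WT, its only value, higher than 93.8% of that column. In the same transcript and the same column site 2 was therefore cut less than site 1. Site 1 is 66 nt and site 2 96 nt from the nearest exon junction, the shortest distances among the 14 sites.

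The Hspg2 site behaved differently from Lamb1 site 2. It lies on chromosome 4 at position 137024721 on the plus strand (uc008vjc.2), in the 5′ UTR, at base 4 of the deposited transcript and base 38 of the matched one. Its efficiencies were 0.704 and 0.740 in WT and KO ESC, and 0.783 and 0.900 in WT and KO EB. KO was higher by 0.0366 in ESC and by 0.117 in EB. It was the only one of the 5 sites with all 4 values whose KO difference was larger in EB. Its KO value also moved most between the cells, by 0.160, higher than at 97.4% of the sites with both KO values.

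Itga5 encodes the α subunit of the fibronectin receptor α5β1. Its site lies on chromosome 15 at position 103196976 on the minus strand (uc007xyb.2), in the 5′ UTR of both coding transcripts that hold it, 19 nt before the start codon of the matched one. The efficiency was 0.375 in ESC WT, 0.414 in ESC KO and 0.652 in EB WT, with no EB KO value. The ESC values were only 0.0388 apart, and the KO value was lower than at any other member site in that column (8 sites, highest 0.935). Only 23.1% of all ESC KO values were lower. The EB WT value was 0.277 higher than the ESC WT value.

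Fat1 encodes a giant protocadherin that acts in cell contacts and actin organisation. It had the most sites of the 8 genes, 4 on the plus strand of chromosome 8 (uc009lon.2), all in the CDS and all 222 nt or more from an exon junction. Site 1, at position 46038584, lies in an exon of 3274 nt and was at 0.514 in WT and 0.919 in KO of ESC, with 0.747 in WT and 0.918 in KO of EB. Site 2, at position 46126128, was at 0.407, 0.935, 0.585 and 0.922 in the same order. Both sites had nearly the same high KO value in ESC and in EB, and their WT values lay below it by different amounts.

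Fat1 site 4, at position 46136396, was the least cut Fat1 site in every column in which several had a value. It lies in an exon of 1477 nt, 367 nt before the last base of the CDS, and was at 0.100 and 0.642 in WT and KO ESC, and 0.236 and 0.707 in WT and KO EB. Its KO differences, 0.542 in ESC and 0.470 in EB, were the largest of the member sites in either kind of cell. Site 3, at position 46129561, had a value in ESC WT alone, 0.788, the highest of the 4 Fat1 sites there. The ESC WT values of 1 transcript thus ran from 0.100 to 0.788.

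Vegfa encodes a secreted growth factor of blood vessels. Its 3 sites lie on the minus strand of chromosome 17 (uc008crn.2), in different parts of the transcript, and none had an ESC WT value. Site 1, at position 46168931 in the 5′ UTR, was at 0.735 in KO of ESC, and in EB at 0.431 in WT and 0.686 in KO. Site 2, at position 46168463, lies in the CDS of 5 and the 5′ UTR of 1 of the 6 coding transcripts that hold it, and was at 0.158 in EB WT and 0.290 in EB KO. Site 3, at position 46155296 in the 3′ UTR, was at 0.880 in KO of ESC, and in EB at 0.625 in WT and 0.923 in KO. In EB all 3 sites were cut less in WT, by 0.254, 0.132 and 0.298. Site 2 was the least cut of the 8 member sites in EB KO, with 18.3% of that column below it, so its WT value could lie no more than 0.290 below it.

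The member sites were cut more without Mettl3 in both kinds of cell. In ESC, 6 sites of 4 genes had both values, and all 6 were higher in KO, with a median difference of 0.381 and a range of 0.0366 to 0.542. A higher KO value, of whatever size, was found at 83.4% of all sites with both ESC values and at 69.7% of those with both EB values. The size of 0.10 or more was reached by 4 of the 6, against 55.4% of the 1046 sites of the table with both values, which had a median of 0.130. The 4 were the 3 Fat1 sites and Lamb1 site 2, and without Fat1 1 of 3 sites reached that size, with a median of 0.0388. Those not reaching it were the 5′ UTR sites of Hspg2 and Itga5. Over all 83 sites in 5′ UTRs the ESC median was 0.0511 and 33.7% reached the size.

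In EB, 8 sites of 4 genes had both values and all 8 were higher in KO by at least 0.10, against 41.9% of 855 sites. The median was 0.213, with a range of 0.117 to 0.470, beside 0.0638 over all sites. The 5 sites outside Fat1 also reached the size, with a median of 0.138. The genes differ from those of ESC, since Vegfa had both values in EB alone and Itga5 in ESC alone. Of the 65 sites in 5′ UTRs with EB values, 12.3% reached the size, and the 5′ UTR sites of Hspg2 and Vegfa site 1 were among them. With the medians of the columns (sites with all 4 values) subtracted, every difference moved by −0.373 in ESC and −0.266 in EB. After that, 3 of 6 sites in ESC and 3 of 8 in EB were above 0. This centring takes off genotype and technical differences between the columns alike, which cannot be told apart. The subtracted shifts are also larger than the difference at a typical site. The median KO minus WT difference over all sites was 0.13 in ESC and 0.0638 in EB. A count above 0 after centring is therefore stricter than a count above the median site difference.

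**Figure D2:**
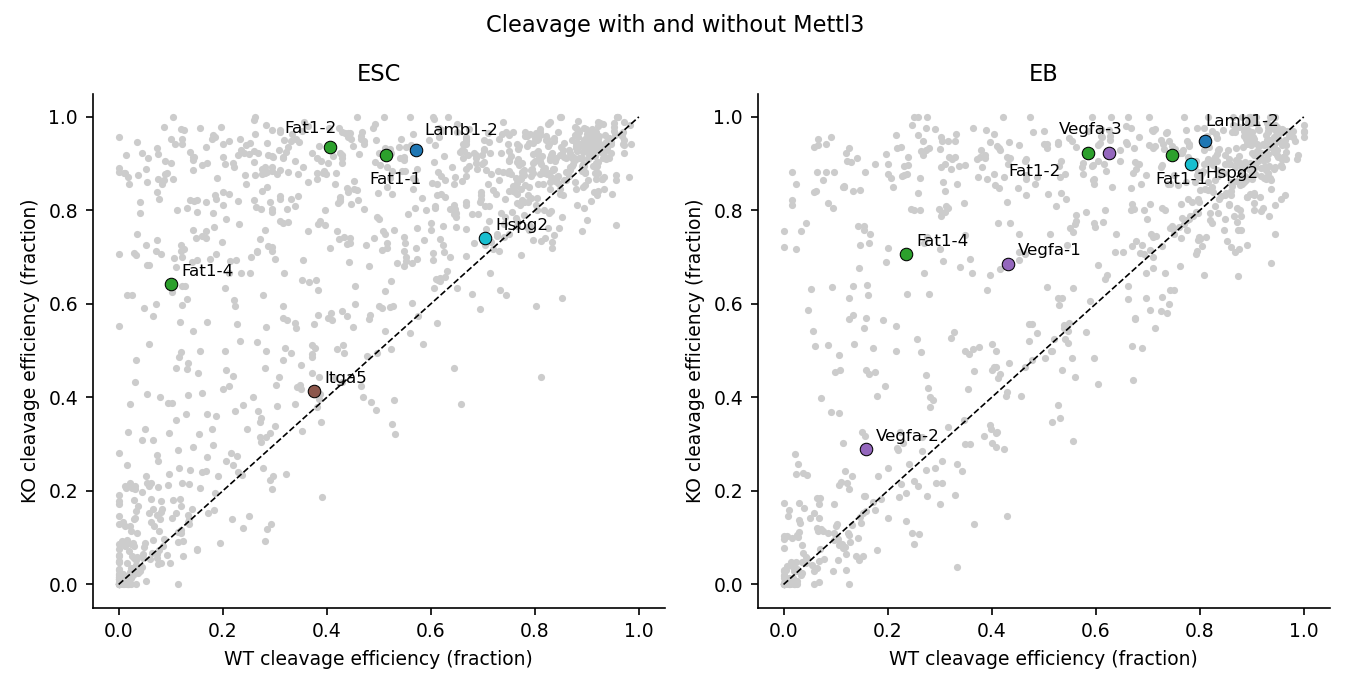
Cleavage efficiency (fraction) in WT (horizontal axis) and KO (vertical axis) in ESC (left) and EB (right), with the member sites coloured by gene and numbered by site, all other sites in grey and a dashed line of equal values. All 6 member sites in ESC and all 8 in EB lie above the line, with Fat1 site 4 farthest from it. After subtraction of column medians, a shift larger than the median difference over all sites, 3 in ESC and 3 in EB would.

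How large these differences are can be set only against the spread between columns, since no library values exist. Between ESC and EB without Mettl3, the absolute difference stayed within 0.166 for 95% of 845 sites. That size was passed by 4 of 6 member sites in KO minus WT in ESC (44.5% of all sites) and by 5 of 8 in EB (35.4%). In EB, Lamb1 site 2, Hspg2 and Vegfa site 2 stayed under it.

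From ESC to EB the WT values were higher at all 7 member sites that had both, as at 71.0% of the sites of the table, and the KO values at 4 of 7, beside 48.2%. The 7 WT differences, EB minus ESC, were 0.368 in Gata4, 0.277 in Itga5, 0.240 in Lamb1 site 2, 0.232, 0.177 and 0.136 in Fat1 sites 1, 2 and 4, and 0.0794 in Hspg2. At least 0.10 was reached by 6 of 7, against 26.4% of the 1071 sites of the table, whose median was 0.0408. Gata4 stood above 99.3% of all sites, Itga5 above 97.5%, Lamb1 site 2 above 96.0% and Fat1 site 1 above 95.5%. The Gata4 difference started from a listed ESC WT value of 0, the lowest possible, at unknown depth, and so equals its EB WT value. Without Fat1 3 of 4 sites reached the size. The size of 0.166 was passed by 5 of 7, and by 14.4% of all sites. Subtracting the column medians moved every WT difference by −0.0963, after which 6 of 7 were above 0 and Hspg2 below it, 4 of 7 reached 0.10 and the member median was 0.136 in place of 0.232.

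In KO, 7 sites had both values and the EB minus ESC differences ran from −0.0490 at Vegfa site 1 to 0.160 at Hspg2, with a median of 0.0206. An EB value higher by at least 0.10 was found at 1 of 7, Hspg2, against 7.10% of 845 sites. None of the 7 passed 0.166, a size set from this same comparison, which by construction only 5.09% of all sites passed. At Fat1 sites 1 and 2 the KO differences were −0.00128 and −0.0132, beside WT differences of 0.232 and 0.177.

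**Figure D3:**
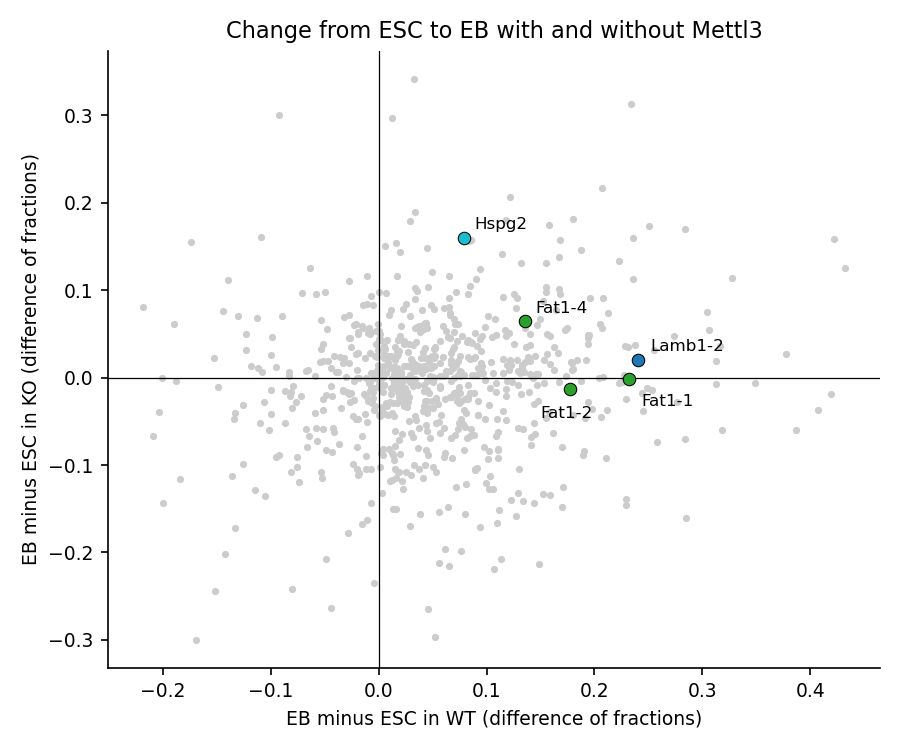
Difference between EB and ESC in cleavage efficiency in WT (horizontal axis) and in KO (vertical axis), both as EB minus ESC in fractions, for sites with all 4 values, with the 5 member sites coloured and the rest in grey. Fat1 sites 1 and 2 and Lamb1 site 2 lie to the right, at 0.177 to 0.240 in WT, and near 0 in KO; Hspg2 is highest among them in KO, at 0.160.

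The KO difference was therefore smaller in EB than in ESC at 4 of the 5 member sites with all 4 values, and at 532 of 759 sites of the table. The difference of the 2 KO effects, EB minus ESC, was −0.234 at Fat1 site 1, −0.219 at Lamb1 site 2, −0.191 at Fat1 site 2, −0.0715 at Fat1 site 4 and 0.0803 at Hspg2. It was −0.10 or lower at 3 of 5, against 32.0% of 759 sites. Without Fat1 it was 1 of 2. With column medians subtracted each value moved by 0.107, so that 3 of 5 stayed below 0, Fat1 site 4 turned above it, and the median went from −0.191 to −0.0837. No test of the difference was possible with 1 value per group.

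The WT value as a percentage of the KO value puts sites with different KO levels on 1 scale. It was 55.9% in ESC and 81.3% in EB at Fat1 site 1, 43.6% and 63.4% at site 2, and 15.6% and 33.4% at site 4. At Lamb1 site 2 it was 61.5% and 85.5%, and at Hspg2 95.1% and 87.0%. It was higher in EB at 4 of these 5 sites and at 72.8% of 735 sites of the table, so most sites of the table shared this direction. Fat1 site 4, whose drop in KO minus WT from 0.542 to 0.470 was small, was on this scale, like sites 1 and 2, higher in EB. In EB the 3 Vegfa sites stood at 62.9%, 54.5% and 67.7%, closer together than their differences of 0.132 to 0.298.

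Region, distance to an exon junction and deposited class were compared as well. The genes were chosen with the efficiencies in view. In the table, distance and class went along with the KO difference, so these features were not independent of that choice. In the matched transcripts 10 of 14 lay in the CDS, 3 in the 5′ UTR and 1 in the 3′ UTR, against 55.7%, 8.15% and 31.6% of the named sites. The distance to the nearest exon junction was 100 nt or more at 12 of 14 sites (85.7%), against 70.3%, with a median of 245 nt beside 205 nt. The deposited table put 8 of the sites in its class CellRep_high and 6 in CellRep_intermediate, and 0 in the low or the highest class, which hold 15.5% and 6.82% of the named sites. No source used here states how these classes were made.

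Sites far from a junction had larger KO differences in the table as a whole, and in ESC Lamb1 site 2 and the Hspg2 and Itga5 sites did not follow that split. At 100 nt or more 67.6% of 599 sites were higher in ESC KO by at least 0.10, and nearer than that 32.8% of 290. Lamb1 site 2, at 96 nt, was higher by 0.357, while Hspg2, at 118 nt, and Itga5, at 245 nt, were higher by 0.0366 and 0.0388. In EB the shares were 54.2% of 480 sites at 100 nt or more and 16.8% of 250 nearer. There Hspg2, higher by 0.117, was past 0.10 like most far sites. Lamb1 site 2, a near site, was higher by 0.138 and so departed from the split in EB as well. The exons that hold Lamb1 site 2, Hspg2 and Itga5 had 288, 156 and 449 nt. Both Gata4, which had no KO value, and Lamb1 site 2 are less than 100 nt upstream of the last CDS base. In that stretch 57 CDS sites of the table had an ESC median of 0.175 and 70.2% reached 0.10. Over all CDS sites these were 0.119 and 54.3%. In EB 51 sites of the stretch had a median of 0.114 and 54.9% reached 0.10, beside 0.0524 and 38.3% over all CDS sites.

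**Figure D4:**
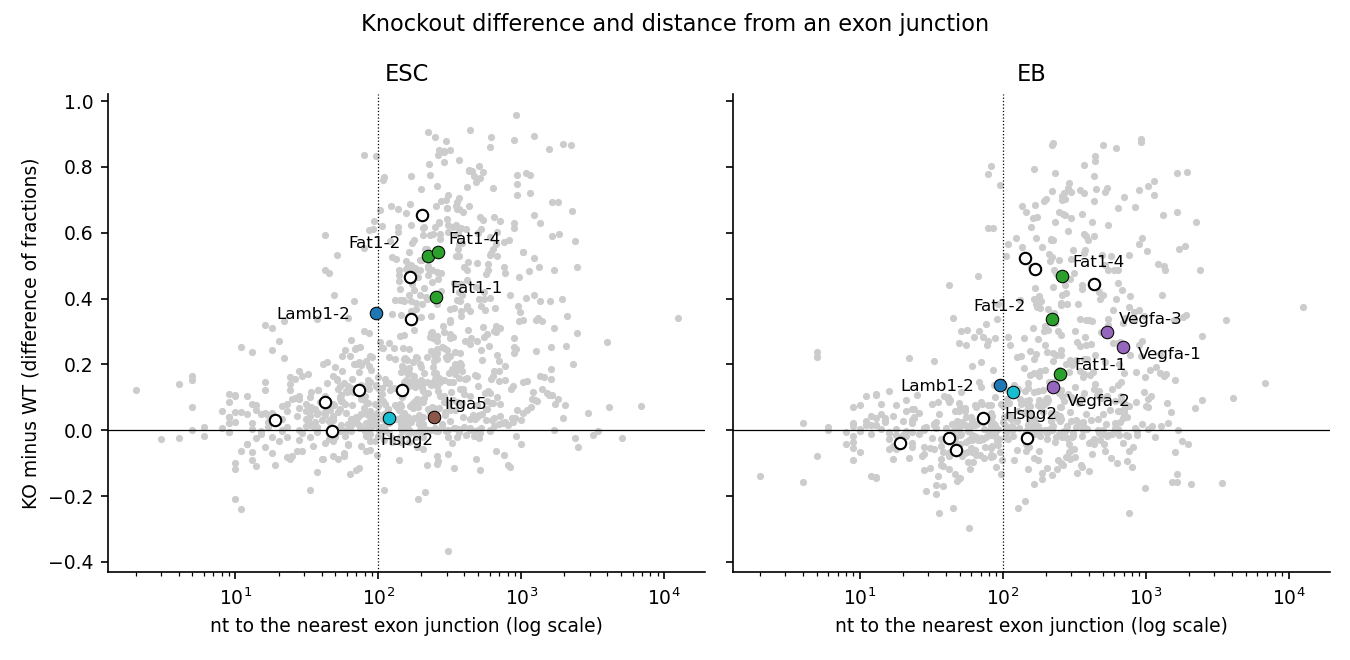
KO minus WT cleavage efficiency (difference of fractions, vertical axis) against the distance to the nearest exon junction (nt, log scale) in ESC (left) and EB (right), with member sites coloured, sites of other listed genes as open circles, remaining sites in grey and a dotted line at 100 nt. The Fat1 and Vegfa sites lie beyond 100 nt, while Lamb1 site 2 lies left of the line, at 96 nt, with 0.357 in ESC.

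Other genes of the same processes were few in the table. Of 191 further genes in 4 lists (endoderm, basement membrane, adhesion and VEGF signalling) 12 had a site, and each had 1. In ESC 5 of 8 of these sites were higher in KO by at least 0.10, against 55.4% of all sites. Their median was 0.123, beside 0.13. In EB it was 3 of 8, against 41.9%, with a median of 0.00673 beside 0.0638. None was lower by that size in either, as 2.58% of all sites were in ESC and 5.96% in EB.

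The basement membrane list held 3 of its 41 other genes. Nid2, which encodes the laminin-binding protein nidogen 2, had a GGACA site at 0.226 in WT and 0.693 in KO of ESC, with 0.316 in WT and 0.806 in KO of EB. Its KO differences of 0.467 and 0.490 were larger than those of Lamb1 site 2 and did not shrink in EB. Lamc1, the laminin γ1 chain gene, whose product assembles with that of Lamb1, had a site 19 nt from a junction that was at 0.877, 0.908, 0.934 and 0.896 in the same order. The site of P4ha1, a collagen prolyl hydroxylase subunit gene, was higher in KO by 0.0845 in ESC and differed by −0.0239 in EB.

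In the adhesion list 6 of 82 other genes had a site. Itgb1, the gene of the integrin β1 chain that pairs with α5, was at 0.933 and 0.930 in WT and KO ESC, and 0.957 and 0.898 in WT and KO EB, so it was nearly fully cut in every column, unlike the Itga5 site. Bcar1, a docking protein of focal adhesions, was higher in KO by 0.443 in EB, and its EB KO value lay 0.225 above that of ESC. The site of the catenin gene Ctnnd1 was higher in KO by 0.123 in ESC and differed by −0.0235 in EB. Its WT value was 0.195 higher in EB. The sites of Ptk2 and Pxn had no WT value.

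The endoderm list had 1 of 39 other genes with a site. That gene was Smad4, the shared mediator of TGF-β and BMP signals, at 0.616 in ESC WT, 0.956 in ESC KO and 0.596 in EB WT. Its WT difference between EB and ESC was −0.0207, the opposite sign to all 7 member sites. In the VEGF list 2 of 29 had one. Hif1a, whose product induces Vegfa in low oxygen, was at 0.311 in ESC WT, 0.967 in ESC KO and 0.512 in EB WT, with a KO difference of 0.655 in ESC and a higher WT value in EB. Egln1, which encodes the prolyl hydroxylase that marks Hif1a protein for decay, was at 0.388 in EB WT and 0.912 in EB KO, 0.524 higher.

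Among the 652 named sites of other genes with all 4 values, the sites nearest to the members over the 4 columns (Euclidean distance) were these. The Pias3 3′ UTR site was nearest both to Lamb1 site 2 (distance 0.0441) and to Fat1 site 1 (0.0556), followed for both by a Sqle site (0.0715 and 0.0601). Pias3 was at 0.549 in WT and 0.908 in KO of ESC, with 0.780 in WT and 0.943 in KO of EB. Csnk2a1 was nearest to Fat1 site 2 (0.0352), Kifc1 to Fat1 site 4 (0.0759) and Prpf31 to Hspg2 (0.0755). Member sites thus had neighbours close to them in value in genes outside the 4 lists. This closeness did not always extend to the KO difference. Prpf31 was at 0.704 and 0.81 in WT and KO ESC, and 0.805 and 0.88 in WT and KO EB. Its KO difference was thus smaller in EB than in ESC, unlike that of Hspg2.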

How the data were processed

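Cleavage was measured in 10 polyA RNA libraries of 4 groups, taken from the labels. The authors deposited 1 table whose cleavage efficiencies, 1 for each site in each group, are fractions between 0 and 1, per the file headers and the values. The column names end in Input. The submitters' processing notes name STAR 2.5.3a, bedtools 2.26.0 and mm9 without a role. How reads were counted, how libraries were combined and how many reads a value needed is stated in no source used here. With the depth unknown, intervals, SDs and p-values were left out. The table held 0 value columns outside the 4 groups.

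Sites were matched to genes by their 11 bases (the A is base 6) in GENCODE M21 transcripts (GRCm38) on the same chromosome and strand, at most 100 nt from the deposited position in the transcript and 10 Mb from that in the genome. The best single gene was kept if a site of some other gene, among the 3 nearest sites on each side, had the same shift in position between builds. This left 1423 of the 1473 sites that matched 1 gene. All 14 member sites passed. Their deposited and matched transcript positions differed most at Vegfa site 3 (80 nt), Dab2 (63 nt) and Hspg2 (34 nt). Coordinates are the deposited mm9 positions of the A, and none was converted. Sequence windows, regions and distances come from the matched transcripts.

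Differences were taken on the fraction and counted at 0.10 or more, with no filter. Limma across sites, planned for values per library, could not be run. Counting was tested on simulated data. All sites of the 8 genes were named, and for other genes those of 4 lists by size. The values of 1 listed gene are not reported here. The members and lists were chosen with earlier results of these data known. Alternatives were a logit scale, subtracted column medians, complete sites, a size of 0.20, stricter and looser matching, 1 value per gene, and, chosen after seeing the data, leaving out Fat1. Analyses used Python 3.11.15 and pandas 2.3.3.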

Additional observations from a re-analysis of the deposited data

Results flagged for a closer look

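At 2 Fat1 sites the EB value was higher than the ESC value in WT and nearly equal to it in KO, where the small difference had the opposite sign. The EB minus ESC difference at Fat1 site 1 was 0.232 in WT and −0.00128 in KO, and at Fat1 site 2 it was 0.177 in WT and −0.0132 in KO. Each rests on 1 value per group, and the difference between genotypes was not tested. The KO differences are far smaller than the 0.166 that 95% of all sites stayed within between ESC and EB in KO, and with column medians subtracted, which adds 0.0107 to each, that of site 1 is above 0.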

How the results depend on the processing

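No paired analysis was possible because the table holds 1 column per group and no library values, and for the same reason no library could be left out. Of 40 counts recomputed under other settings, 26 stayed within 1.5 times of those reported and 14 did not. Subtracting column medians left 2 of 6 sites higher in KO by at least 0.10 in ESC and 1 of 8 in EB, where the median became −0.0535. That subtraction moved each site by more than the median KO minus WT difference over all sites. A size of 0.20 left 4 of 8 in EB and 0 of 7 for EB minus ESC in KO. With fewer sites by construction, the EB count of KO minus WT was 5 of 5 for complete sites, 3 of 3 for sites matched at the deposited transcript position and 4 of 4 for 1 value per gene, so every remaining site or gene still passed; 1 value per gene gave 2 of 4 in ESC. Exact matching also left 0 of 3 for EB minus ESC in KO, with a median of −0.00128. On the logit scale that count was 2 of 7, with 0.401 as the size. Without Fat1, the gene with the most sites, the counts were 1 of 3 in ESC, 5 of 5 in EB, 3 of 4 for EB minus ESC in WT and 1 of 2 for the lower KO effect in EB. The cause of the moves under centring and the logit scale was not tested. Dropping the neighbour rule changed none of the counts. Without read numbers, differences near 0.10 cannot be told from counting error.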
